A study of Mus musculus with 16 samples.

Results

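The 46 genes described here encode the main components of transforming growth factor beta (TGF-beta) and bone morphogenetic protein (BMP) signalling, from secreted ligands to the Id genes that BMP signals switch on. They were listed by name and matched by symbol to 46 of the 54453 genes in the deposited expression table, and 45 of them had an average above 0 and entered the test of 15285 protein-coding genes. Bmp5, which encodes a BMP ligand, did not, with rlog values of -0.71 in the MEF-1 parental line and -1.04 in that of MEF-2. Total RNA was sequenced from 16 mouse embryonic fibroblast (MEF) lines, 1 library per line, in a study that asked how faithfully DNA methylation is passed on when single cells are grown into populations. The lines derive from 2 sibling C57BL/6J embryos at E13.5. Cells of each embryo were carried in culture through crisis until they grew without limit, which gave a parental line per embryo, named MEF-1 or MEF-2, and single sorted cells of each were grown into 7 clonal lines. None of these lines is labelled with a transgene or a treatment.

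All values are rlog values, which are on a log2 scale, divided by a size factor per library and drawn towards the average of the gene, most strongly for genes with few reads. A difference of 1 is a doubling on this scale, and changes of weakly expressed genes are understated. The 7 clonal lines of MEF-1 and the 7 of MEF-2 were compared with limma, two-sided, with Benjamini-Hochberg adjustment over all 15285 genes, and a gene was called at an adjusted p under 0.05. Each set comes from 1 embryo and 1 immortalised culture, so the p-values compare these 2 sets of clones, and embryo, immortalisation and sex cannot be told apart. By PCR of the SRY gene, the study found MEF-1 to be male and MEF-2 female. The Y-linked gene Ddx3y had rlog values of 10.46 to 12.37 in MEF-1 clones and of 5.58 to 5.68 in MEF-2 clones. A flat value in the middle of this scale can thus stand for a gene that is absent. Fibroblast markers other than Thy1 and Lum were strong throughout, with Col1a1 at 20.31 to 21.41. Thy1 and Lum varied and were weaker, with averages above those of only 42.7% and 51.9% of protein-coding genes. Thy1 stood at 2.72 to 3.43 in MEF-1 clones, at 3.42 to 8.02 in MEF-2 clones and at 6.12 and 10.22 in the parental lines, and Lum at 9.10 to 11.88, 5.60 to 8.70, 7.94 and 5.51. The summed level of all 9 fibroblast markers was 22.24 to 22.72 in MEF-1 clones and 22.05 to 22.76 in MEF-2 clones (log2). Col1a1, Col1a2 and Fn1 make up most of this sum, in which Thy1 and Lum hardly count. The part of such marker differences in the results was not tested. Of the 4 endothelial markers, Cdh5, Pecam1, Kdr and Tek reached at most 0.98, 2.58, 4.43 and 6.57 in any line. Cdh1 among the 4 epithelial markers reached 8.41 and Cd68 among the 3 blood markers 5.58. The 3 muscle markers reached at most 4.29, and of the 3 neural ones Map2 averaged 12.08 while Sox10 and Rbfox3 were below 0 in every line.

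TGF-beta ligands are secreted in a latent form, held in the matrix by latent TGF-beta binding proteins, and once released they bring together type II and type I receptors that phosphorylate Smad2 and Smad3. Most BMP ligands and some GDF ligands act mainly through Smad1, Smad5 and Smad9, and Smad4 is the shared partner of both arms. Smad6 and Smad7 act as brakes inside the cell, and Noggin, Chordin, Gremlin and Follistatin bind ligands outside it. In fibroblasts TGF-beta is best known for driving the production of matrix.

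Of the 45 genes tested, 26 were called between the sets (57.8%), against 56.1% of all genes tested. There were 14 genes higher in MEF-2 (31.1%, against 27.5% of all genes) and 12 lower (26.7%, against 28.6%). These shares are near the background. A call together with a difference of at least 1 was made for 14 genes (31.1%), against 12.9% of all genes tested. The median size of the difference was 0.41 for the 45 genes and 0.30 for all. Their median average was 11.93, against 10.53 for all, and rlog narrows differences of weak genes, so these figures are not like for like. The 14 genes with a call and a difference of at least 1 were not all strong. Their averages ran from 4.73 (Gdf6) to 14.84 (Tgfbr2), on both sides of 10.53. The list was also chosen with earlier results of these data known. For 14 genes (31.1%) the 2 sets of clonal lines did not overlap, against 25.9% of all genes. The difference of every tested gene is plotted by role.

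**Figure D1:**
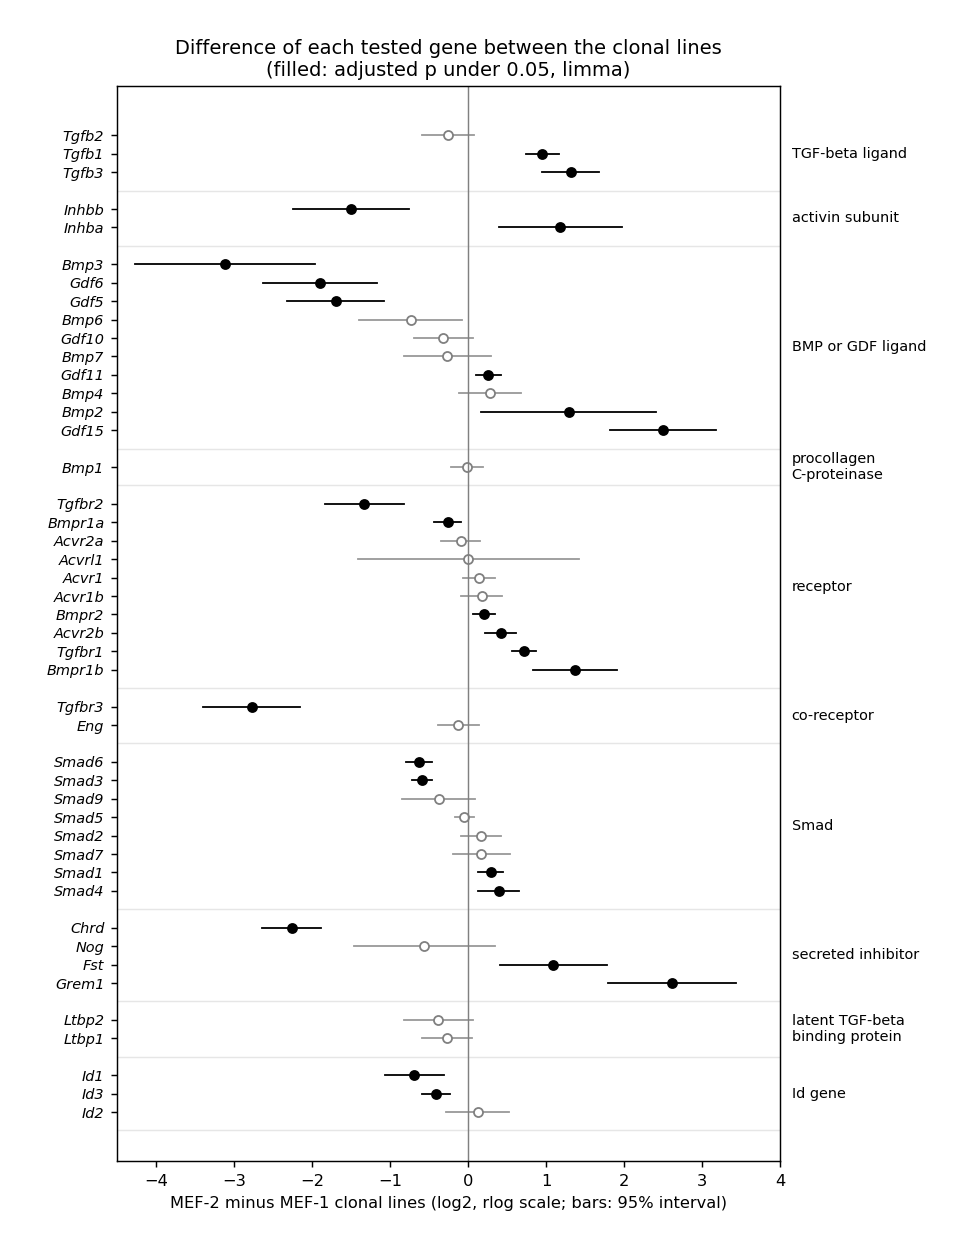
Difference between the MEF-2 and MEF-1 clonal lines (horizontal axis, log2, rlog scale) for the 45 tested genes, grouped by role, with bars for the 95% interval and filled points for an adjusted p under 0.05 (limma). The BMP and GDF ligands span from Bmp3 at -3.12 to Gdf15 at 2.50, and the secreted inhibitors from Chrd at -2.26 to Grem1 at 2.61.

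The promoters of 4 genes are shown first, as Grem1 and Chrd are the secreted inhibitors that moved furthest in opposite directions, Id3 is a classical BMP target and Smad6 is the inhibitory Smad that fell. Each window covers 300 bases, from 250 before to 50 after the RefSeq start, in build GRCm38.p6, and is written 5′ to 3′ on the strand of the gene. Capitals mark the letters GGCGCC, which Smad proteins of the BMP arm are known to bind, and the Smad box CAGAC, which on the other strand reads GTCTG. The window of Grem1 is chr2:113758599-113758898 on the minus strand, that of Chrd is chr16:20732877-20733176 on the plus strand, that of Id3 is chr4:136143572-136143871 on the plus strand, and that of Smad6 is chr9:64022010-64022309 on the minus strand.
Grem1: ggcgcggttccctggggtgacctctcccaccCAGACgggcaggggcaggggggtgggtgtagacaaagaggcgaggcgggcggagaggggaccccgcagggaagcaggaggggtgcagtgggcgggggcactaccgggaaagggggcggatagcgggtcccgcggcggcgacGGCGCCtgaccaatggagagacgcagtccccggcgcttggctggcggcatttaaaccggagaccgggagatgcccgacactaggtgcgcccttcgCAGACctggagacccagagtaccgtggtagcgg
Chrd: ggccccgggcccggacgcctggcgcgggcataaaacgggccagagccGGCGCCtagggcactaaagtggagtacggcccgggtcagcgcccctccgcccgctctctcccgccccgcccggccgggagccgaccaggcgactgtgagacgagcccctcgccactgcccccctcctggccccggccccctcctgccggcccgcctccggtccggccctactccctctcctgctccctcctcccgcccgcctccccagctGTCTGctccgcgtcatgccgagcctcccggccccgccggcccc
Id3: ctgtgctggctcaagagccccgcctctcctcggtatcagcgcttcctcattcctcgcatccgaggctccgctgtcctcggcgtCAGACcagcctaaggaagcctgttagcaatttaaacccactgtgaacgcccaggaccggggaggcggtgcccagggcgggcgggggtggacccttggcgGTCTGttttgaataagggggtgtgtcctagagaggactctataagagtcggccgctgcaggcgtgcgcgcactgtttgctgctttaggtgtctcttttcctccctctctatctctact
Smad6: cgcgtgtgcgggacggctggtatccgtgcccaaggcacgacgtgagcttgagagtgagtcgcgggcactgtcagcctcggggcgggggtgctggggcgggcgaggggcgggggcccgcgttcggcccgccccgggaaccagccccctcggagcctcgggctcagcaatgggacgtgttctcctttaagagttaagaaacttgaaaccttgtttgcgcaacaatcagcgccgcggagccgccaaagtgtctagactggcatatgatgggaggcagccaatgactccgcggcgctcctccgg

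Grem1 and Chrd each hold 1 GGCGCC, while Grem1 and Id3 hold 2 matches to CAGAC on either strand and Chrd holds 1. Smad6 holds neither run of letters in this window. Of all 32851 RefSeq promoter windows of this length, 11.9% hold GGCGCC and 49.6% hold CAGAC on either strand, and no match of one motif overlaps a match of the other in the 4 windows printed. The CpG count was 28 in Grem1, 34 in Chrd, 19 in Id3 and 31 in Smad6, against a median of 7 per window. Among the 46 genes, 31 have an entry in the promoter table.

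Among the secreted inhibitors, Grem1 and Fst were higher in the MEF-2 clonal lines and Chrd was lower, and Nog was not called. Grem1 encodes Gremlin, which binds and blocks BMP2, BMP4 and BMP7, and lies at chr2:113746164-113758646. Its rlog value had a lowest of 10.07, a median of 11.03 and a highest of 11.77 in the MEF-1 clonal lines and of 11.52, 13.91 and 14.16 in those of MEF-2, with 11.98 and 14.18 in the parental lines. Only MEF-2 clonal line 3, at 11.52, reached into the MEF-1 range. The difference was 2.61 ± 0.38 (SE, 7 lines against 7, adjusted p = 4.63e-05), or 6.11-fold. In that line the median gene of chromosome 2 stood at -0.23, on the log2 scale and relative to the 14 clonal lines. Of the 8 tested genes on chromosome 2, 5 were lowest there among the MEF-2 clonal lines (Grem1, Gdf5, Acvr1, Acvr2a and Eng), and so were 10 of the other 37. The part of the chromosome in these values was not tested.

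Chrd, which encodes Chordin, lies at chr16:20733127-20742384. Its values ran from 8.59 through a median of 9.09 to 9.79 in the MEF-1 clonal lines and from 6.47 through 6.84 to 7.30 in those of MEF-2. The sets were far apart, and the difference was -2.26 ± 0.18 (SE, adjusted p = 8.41e-08), a 4.80-fold lower value in MEF-2. The parental lines stood closer together, at 9.13 for MEF-1 and 8.52 for MEF-2, so that the MEF-2 parental line lay 1.22 above the highest of its own clones. In RNA from whole cultures, fewer cells that express a gene and less RNA per cell cannot be told apart.

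Fst encodes Follistatin, which binds activins, and had values of 10.39, 11.29 and 12.56 (lowest, median and highest) in the MEF-1 clonal lines, with 12.42 in their parental line. The MEF-2 clonal lines had 11.63, 12.43 and 12.97, with 13.09 in the parental line. The sets overlapped between 11.63 and 12.56, and the difference was 1.09 ± 0.32 (SE, adjusted p = 0.00962). Nog, the gene of Noggin, ranged widely in both sets, from 5.45 to 7.79 and from 4.84 to 7.08, and its difference of -0.56 had a 95% interval of -1.46 to 0.35 (adjusted p = 0.277).

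**Figure D2:**
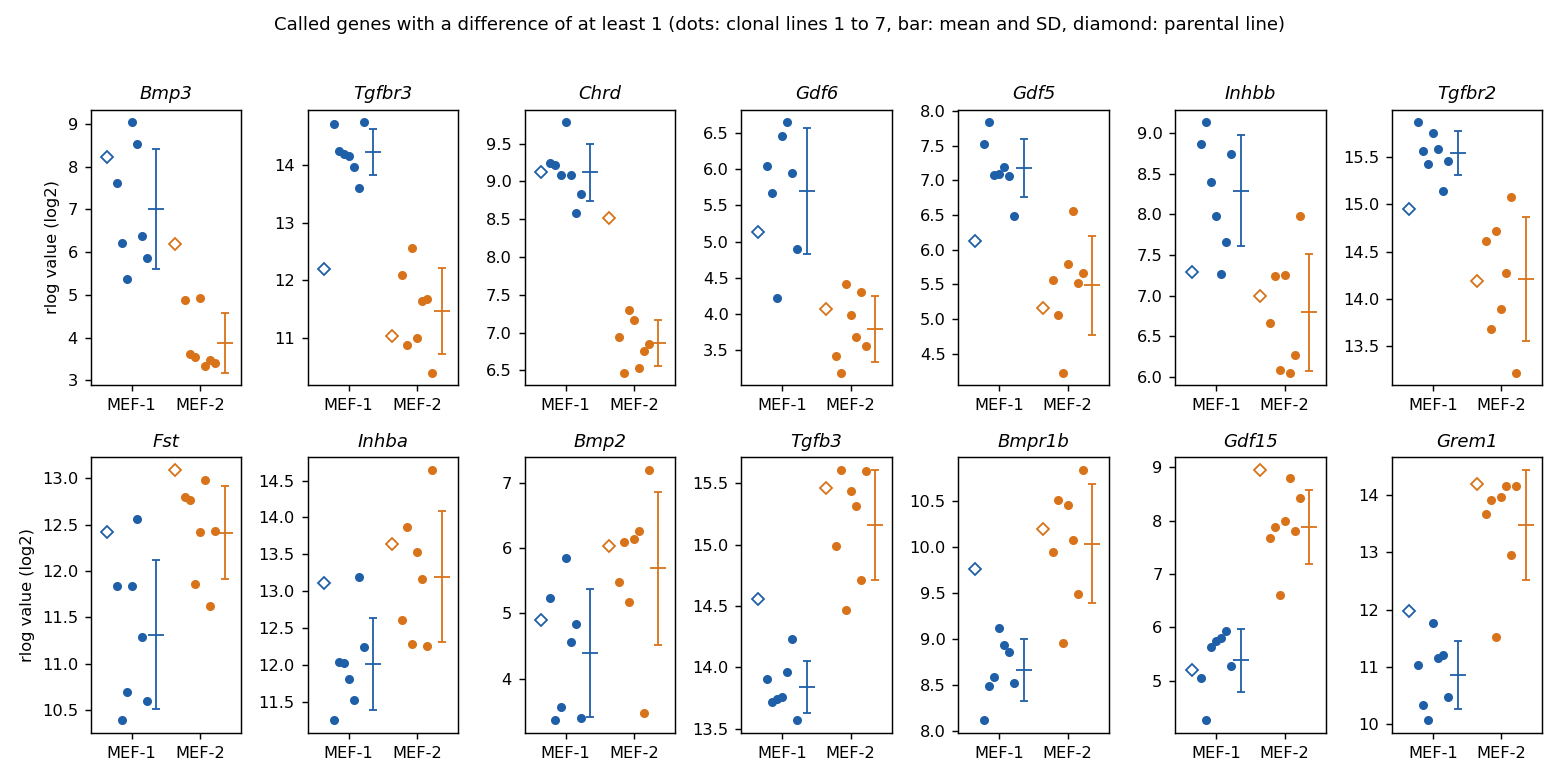
Rlog values (vertical axis, log2) of the 14 genes called with a difference of at least 1, with dots for clonal lines 1 to 7 from left to right, a bar for their mean and SD, and a diamond for the parental line. Chrd, Tgfbr3, Bmp3, Gdf15, Tgfb3 and Tgfbr2 show sets without overlap, whereas Bmp2, Inhba and Fst overlap, and the Tgfbr3 value of the MEF-1 parental line lies at 12.20, among the MEF-2 clones.

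Tgfb1 and Tgfb3 were higher in the MEF-2 clonal lines, and Tgfb2 was not called. Set on a scale per kilobase of exon, Tgfb3 was the strongest of the 3 with a level of 12.81 (log2, mean of 16 lines), followed by Tgfb2 at 10.41 and Tgfb1 at 8.67. Tgfb3 lies on chromosome 12 and had rlog values of 13.57, 13.76 and 14.23 (lowest, median, highest) in the MEF-1 clonal lines and 14.46, 15.31 and 15.60 in those of MEF-2. The sets did not overlap, and the MEF-1 parental line, at 14.56, was above all 7 of its clones while that of MEF-2, at 15.46, lay within its own. The difference was 1.32 ± 0.17 (SE, adjusted p = 1.48e-05). The median gene of chromosome 12 was itself 0.59 higher in MEF-2, and with chromosome medians taken away the difference of Tgfb3 was 0.73 ± 0.17 (SE, adjusted p = 0.00244). Relative to the 14 clonal lines, that median gene stood at -0.06 (log2) in the MEF-1 parental line and at -0.34 to -0.27 in its clones. The study proposes, from DNA coverage, a lost copy of chromosome 12 in all or some MEF-1 lines, and its part in these values was not tested.

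Tgfb1, the best studied of the ligands, had values of 10.15 to 10.75 in the MEF-1 and of 11.22 to 11.75 in the MEF-2 clonal lines, again without overlap. The difference was 0.95 ± 0.10 (SE, adjusted p = 1.50e-06), and both parental lines, at 10.57 and 11.53, lay within their sets. For Tgfb2 the difference was -0.26, with a 95% interval of -0.59 to 0.07. The gene Bmp1, which despite its name encodes a protease that trims procollagen and activates latent ligands, differed by -0.01 ± 0.10 (SE, adjusted p = 0.927).

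The 2 activin subunit genes moved in opposite directions. Inhba, which encodes the subunit of activin A, had values of 11.25, 12.02 and 13.20 in the MEF-1 clonal lines (lowest, median, highest) and of 12.25, 13.16 and 14.65 in those of MEF-2, with 13.11 and 13.63 in the parental lines. One MEF-1 line, number 6, lay well inside the MEF-2 range, and the difference was 1.18 ± 0.37 (SE, adjusted p = 0.0136). Inhbb, the gene of the activin B subunit, was at 7.26, 8.40 and 9.14 in MEF-1 clones and at 6.05, 6.66 and 7.98 in MEF-2 clones, with parental values of 7.30 and 7.00. These sets also overlapped, and the difference was -1.50 ± 0.35 (SE, adjusted p = 0.00201).

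Of the 11 BMP and GDF ligand genes, 10 were tested, of which 3 were higher in MEF-2, 3 were lower and 4 were not called. Among all genes tested, 27.5% were higher and 28.6% lower. Bmp4 was by far the strongest on the scale per kilobase, at 11.51 (log2), followed by Gdf11 at 9.30, Gdf15 at 5.80 and Gdf5 at 5.03. Bmp2, Gdf6 and Bmp3 came after them at 3.27, 2.91 and 2.78, and Bmp6, Bmp7, Gdf10 and Bmp5 were lower still. The rlog values of Bmp4 were 12.00 to 12.83 in MEF-1 clones and 12.03 to 13.47 in MEF-2 clones. Its difference of 0.28 (95% interval -0.12 to 0.68) was not called (adjusted p = 0.215).

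Bmp3, which encodes a ligand known to oppose other BMPs, was the gene with the largest difference of all 45. Its rlog values were 5.38, 6.39 and 9.04 (lowest, median, highest) in the MEF-1 clonal lines and 3.34, 3.54 and 4.93 in those of MEF-2. The sets did not overlap, although the MEF-1 clones alone covered a range of 3.66, with lines 4 and 5 at 9.04 and 8.54 and line 3 at 5.38. The difference was -3.12 ± 0.54 (SE, adjusted p = 0.000202). The parental values were 8.24 for MEF-1, within its clones, and 6.20 for MEF-2, which was 1.27 above the highest of its clones.

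Gdf5 and Gdf6, close relatives that pattern joints and skeleton, were both lower in MEF-2. Gdf5 stood at 6.49, 7.10 and 7.84 in the MEF-1 and at 4.23, 5.56 and 6.56 in the MEF-2 clonal lines, with 6.12 and 5.16 in the parental lines. The highest MEF-2 line just passed the lowest MEF-1 line, and the difference was -1.70 ± 0.29 (SE, adjusted p = 0.000197). Gdf6 stood at 4.22, 5.95 and 6.65 and at 3.19, 3.68 and 4.41, with parental values of 5.14 and 4.07. Here, too, the sets met at the edge, as MEF-1 line 3, at 4.22, fell below the 2 highest MEF-2 lines, and the difference was -1.90 ± 0.34 (SE, adjusted p = 0.000279).

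Gdf15, a secreted factor known to respond to cell stress, was higher in MEF-2. Its values were 4.25, 5.63 and 5.94 in the MEF-1 clonal lines and 6.60, 7.89 and 8.79 in those of MEF-2, with 5.20 and 8.95 in the parental lines. No clone of one set reached the other, and the difference was 2.50 ± 0.32 (SE, adjusted p = 1.17e-05). Bmp2, a potent inducer of bone, stood at 3.36, 4.57 and 5.84 in MEF-1 clones and at 3.47, 6.09 and 7.19 in MEF-2 clones, with parental values of 4.90 and 6.02. The sets overlapped over nearly the whole MEF-1 range, since MEF-2 line 6 stood at 3.47. Its difference of 1.29 ± 0.53 (SE) was only just called (adjusted p = 0.0485), and the exact permutation test gave an adjusted p of 0.0779. The call on Gdf11 rested on a small difference of 0.26 ± 0.08 (SE, adjusted p = 0.00872). Bmp6, Bmp7 and Gdf10, all weakly expressed, were not called, with differences of -0.73 (95% interval -1.39 to -0.08, adjusted p = 0.0549), -0.27 and -0.32.

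Receptor genes were called in both directions, with 4 of 10 higher in MEF-2 and 2 lower. Of all genes tested, 27.5% were higher and 28.6% lower, so such small counts tell little about a role. The 2 chains of the TGF-beta receptor moved apart. Tgfbr2, whose product binds the ligand first, had rlog values of 15.14, 15.56 and 15.86 in the MEF-1 and of 13.22, 14.27 and 15.08 in the MEF-2 clonal lines, with 14.95 and 14.19 in the parental lines. The sets were separate by a narrow gap, and the difference was -1.33 ± 0.24 (SE, adjusted p = 0.000259). Tgfbr1, the signalling type I chain, ran from 11.84 to 12.29 in MEF-1 and from 12.66 to 12.98 in MEF-2 clones, and the difference was 0.72 ± 0.07 (SE, adjusted p = 1.03e-06). On the scale per kilobase, levels were 11.80 for Tgfbr2 and 9.75 for Tgfbr1 (log2, mean of 16 lines).

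Tgfbr3 encodes betaglycan, which presents TGF-beta2 to the signalling receptors, and lies at chr5:107106570-107289629. In the MEF-1 clonal lines its values were 13.60, 14.19 and 14.75, and in those of MEF-2 they were 10.40, 11.63 and 12.56. The 2 sets stood more than 1 apart at their nearest lines, and the difference was -2.77 ± 0.29 (SE, adjusted p = 1.70e-06), or 6.82-fold lower in MEF-2. The MEF-1 parental line, however, had a value of 12.20, which placed it at -1.40 from the lowest of its 7 clones, whereas MEF-2 at 11.03 was within its set. A transcript model of unknown function, Gm43422, shares 297 exon bases with Tgfbr3 on the same strand and averaged 5.78.

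Among the BMP and activin receptors, Bmpr1b was called with the largest difference. Its product is a type I receptor with a known role in cartilage. Values were 8.12, 8.59 and 9.12 in the MEF-1 and 8.96, 10.08 and 10.84 in the MEF-2 clonal lines, with 9.77 and 10.19 in the parental lines. Only MEF-2 line 3, at 8.96, fell among the MEF-1 clones, and the difference was 1.37 ± 0.25 (SE, adjusted p = 0.000337). Bmpr1a, a more strongly expressed type I receptor gene at 12.24 per kilobase against 6.85 (log2), differed the other way by -0.26 ± 0.08 (SE, adjusted p = 0.0123). Small higher values in MEF-2 were called for the type II receptors Bmpr2 (0.21 ± 0.07, SE, adjusted p = 0.0161) and Acvr2b (0.42 ± 0.09, SE, adjusted p = 0.00160). The differences of Acvr1, Acvr1b and Acvr2a, at 0.14, 0.18 and -0.09, were not called.

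Acvrl1, which encodes the endothelial type I receptor ALK1, was spread more widely than any other gene among the MEF-2 clones. It stood at 3.20, 3.85 and 8.37 (lowest, median, highest) in them and at 3.54, 4.36 and 5.77 in the MEF-1 clones, with parental values of 3.64 and 3.82. A single line, MEF-2 clonal line 7, held the value of 8.37, and the next was 4.40. The difference between the sets was 0.00 ± 0.67 (SE, adjusted p = 0.997), and without that line it was -0.65 (adjusted p = 0.115). Eng, the gene of the co-receptor endoglin that works with ALK1 in vessels, ran from 6.77 to 7.40 in the same MEF-2 clones and was at 7.40 in line 7.

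Of the 8 Smad genes, 2 were higher in MEF-2, 2 were lower and 4 were not called, where 27.5% of all genes were higher and 28.6% lower. Smad3, which carries the TGF-beta signal, had values of 14.46 to 14.73 in MEF-1 clones and 13.79 to 14.14 in MEF-2 clones, without overlap and with a difference of -0.59 ± 0.06 (SE, adjusted p = 1.66e-06). The inhibitory Smad6 ran from 11.62 to 12.06 and from 10.97 to 11.39, also without overlap, and its difference was -0.63 ± 0.08 (SE, adjusted p = 1.07e-05). Smad1 was higher by 0.29 ± 0.08 (SE, adjusted p = 0.00492). For Smad5 and Smad9 the differences were -0.05 and -0.37 and were not called.

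From DNA coverage, the study proposes a lost copy of chromosome 18 in all or some MEF-1 lines, and its part in these values was not tested. Smad2, Smad4 and Smad7 lie together on this chromosome, whose median gene split the MEF-1 clones. It stood at -0.42 to -0.49 (log2, relative to the 14 clonal lines) in lines 1, 4 and 5, at 0.04 to 0.15 in lines 2, 3, 6 and 7, and at 0.12 to 0.16 in the 7 MEF-2 clones. Smad4, the common partner, had values of 12.56, 12.70 and 12.69 in MEF-1 lines 1, 4 and 5 and of 13.13 to 13.36 in the other MEF-1 lines. All MEF-2 clones lay between 13.37 and 13.48, just above them. The difference was 0.39 ± 0.12 (SE, adjusted p = 0.0127), and 0.11 ± 0.04 (SE, adjusted p = 0.0295) with chromosome medians taken away.

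The TGF-beta mediator Smad2 followed the same split, at 12.36, 12.26 and 12.24 in MEF-1 lines 1, 4 and 5 and 12.73 to 12.94 in the others. Taking the chromosome median away narrowed the range of the MEF-1 clones from 0.70 to 0.20 for Smad2, from 0.80 to 0.24 for Smad4 and from 1.13 to 0.65 for Smad7, the inhibitor that TGF-beta itself induces. The differences of Smad2 and Smad7 between the sets were 0.17 each and were not called (adjusted p = 0.248 and 0.413), and both were -0.11 after that step.

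**Figure D3:**
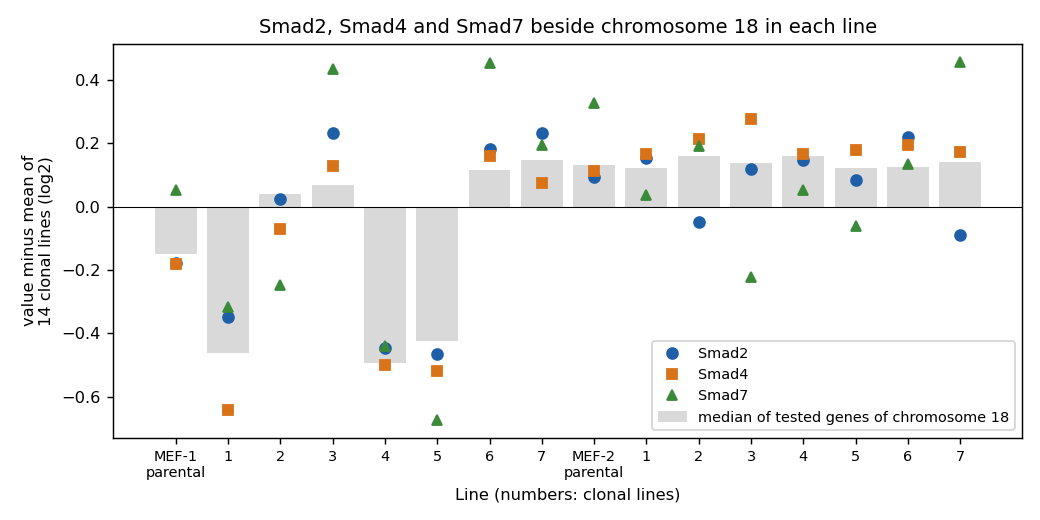
Rlog values of Smad2, Smad4 and Smad7 and the median of the tested genes of chromosome 18 (grey bars) in all 16 lines, as deviations from the mean of the 14 clonal lines (vertical axis, log2). MEF-1 clonal lines 1, 4 and 5 lie low for all of them, with chromosome medians of -0.46, -0.49 and -0.42.

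The Id genes encode proteins that hold back transcription factors and are direct targets of BMP Smads. Id1 and Id3 were lower in MEF-2, and Id2 was not called. Id1 had values of 11.65, 12.67 and 12.93 (lowest, median, highest) in the MEF-1 and of 11.55, 11.87 and 12.22 in the MEF-2 clonal lines, with 12.31 and 11.99 in the parental lines. One MEF-1 line, number 2, stood at 11.65 among the MEF-2 values, and the other 6 were above them all. The difference was -0.69 ± 0.18 (SE, adjusted p = 0.00403).

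Id3 was the strongest of all 46 genes per kilobase of exon, at 13.40 (log2, mean of 16 lines). It stood at 14.29, 14.51 and 14.76 in the MEF-1 and at 13.86, 14.12 and 14.24 in the MEF-2 clones, with 13.79 and 13.88 in the parental lines. The clonal sets did not overlap, but the MEF-1 parental line lay at -0.49 from the lowest of its clones, beneath all MEF-2 clones too. The difference between the clones was -0.41 ± 0.08 (SE, adjusted p = 0.000787). Id2 had 10.88, 11.22 and 11.78 and 10.86, 11.30 and 11.99, with 10.97 and 11.33 in the parental lines, and its sets covered nearly the same range. Its difference was 0.13 (95% interval -0.28 to 0.53), and -0.46 ± 0.19 (SE, adjusted p = 0.0456) with the higher median of its chromosome, 12, taken away.

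Both latent TGF-beta binding proteins were strongly expressed, at 11.87 per kilobase for Ltbp1 and 12.12 for Ltbp2 (log2). Neither was called, with differences of -0.27 ± 0.15 (SE, adjusted p = 0.139) and -0.38 ± 0.21 (SE, adjusted p = 0.129). Ltbp2 shares chromosome 12 with Tgfb3, and without the chromosome median its difference was -0.97 ± 0.21 (SE, adjusted p = 0.00112).

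Clonal lines of the same parental line differed widely in these genes. A range of at least 1 across 7 clones was found for 18 of 45 genes (40%) in MEF-1, against 24.2% of all genes, and for 21 (46.7%) in MEF-2, against 18.1%. The median SD was 0.33 and 0.31 for these genes and 0.20 and 0.16 for all. Neither comparison is like for like. These genes were more strongly expressed (median average 11.93, against 10.53 for all), and rlog narrows the spread of weak genes. The widest ranges were those of Acvrl1 (5.17) and Bmp2 (3.72) in MEF-2 and Bmp3 (3.66) in MEF-1. These 3 genes were weakly expressed, with averages of 4.36, 5.10 and 5.66, so the stronger median level does not describe them. Others with a range of at least 1, such as Tgfb2 (12.94) and Id1 (12.21) in MEF-1, were strong. The part of the expression level in the ranges was not tested.

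In MEF-2, clonal lines 2 and 7 stood at one end of the set for many of the genes, which was seen after the values were known. They were the 2 highest for 12 of 45 genes (26.7%, against 22.3% of all genes) and the 2 lowest for 10 (22.2%, against 13.2%), so the order is common well beyond these genes. Inhba stood at 13.87 and 14.65 in these lines and between 12.25 and 13.54 in the other 5, and Tgfb3 and Bmpr1b were highest there as well. Tgfbr2 was lowest in both, at 13.68 and 13.22, against 13.90 to 15.08 in the others, and Tgfbr3 and Smad9 were lowest there too. For Smad9 the gap was clear, with 10.30 and 10.21 against 11.24 to 11.60.

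**Figure D4:**
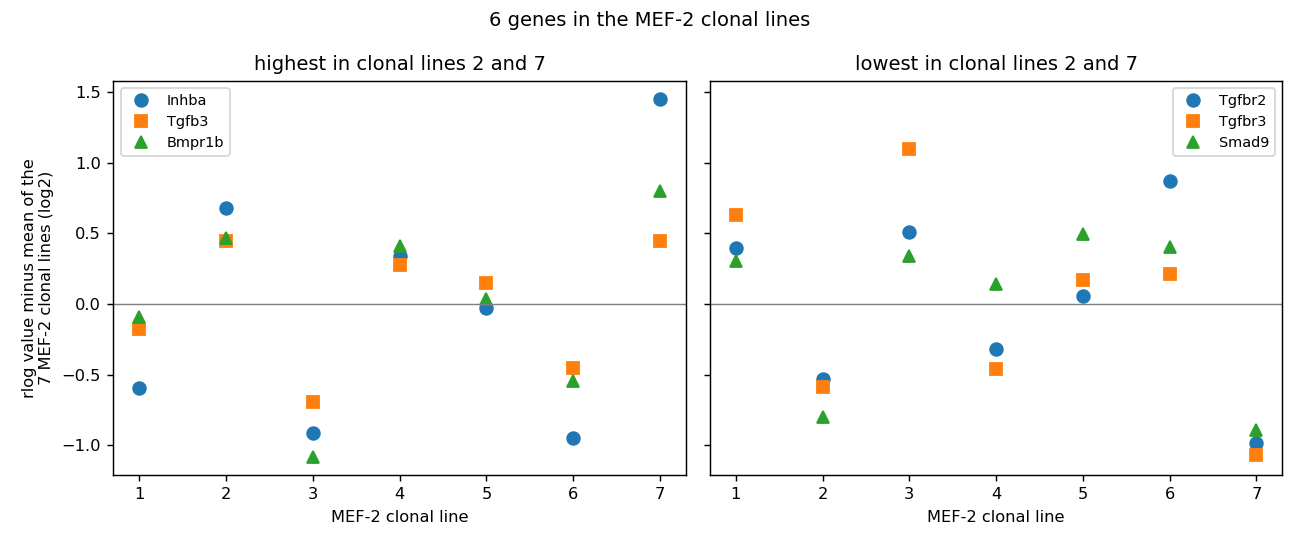
Rlog values of 6 genes in the 7 MEF-2 clonal lines (horizontal axis), as deviations from the mean of the set (vertical axis, log2). Inhba, Tgfb3 and Bmpr1b are highest in lines 2 and 7, and Tgfbr2, Tgfbr3 and Smad9 are lowest in them.

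Relations between pairs of these genes, or of Smad7 with the TGF-beta target Skil, were examined within each set. Of 18 computed, over which p-values were adjusted, 16 are reported. None of these 16 had an adjusted p under 0.05 in exact permutation tests, and 4 had an unadjusted p under 0.05. The strongest was Smad7 with Skil in the MEF-2 clones (Pearson's r = 0.938, exact permutation p = 0.00556, adjusted p = 0.10, Spearman's rho = 0.893, exact p = 0.0123, n = 7), with r = 0.746 when the 2 lines farthest from the median of Smad7 were left out. In the MEF-1 clones it was r = 0.861 (exact permutation p = 0.0149, adjusted p = 0.112, rho = 0.750, exact p = 0.0663, n = 7), and 0.533 without 2 lines. In that set Smad7 was lowest in lines 1, 4 and 5, which had the low chromosome 18 median, at 11.59, 11.46 and 11.23. Line 2, without the low median, was close to them at 11.66. Id2 and Id3 gave r = 0.881 in MEF-1 (exact permutation p = 0.0187, adjusted p = 0.112, rho = 0.714, exact p = 0.0881, n = 7) and 0.942 without 2 lines, and 0.383 in MEF-2 (exact permutation p = 0.423, adjusted p = 0.60, rho = 0.214, exact p = 0.662, n = 7), with 0.000161 without 2 lines. Id1 and Id3 gave r = 0.690 in MEF-1 (exact permutation p = 0.0486, adjusted p = 0.146, rho = 0.786, exact p = 0.0480, n = 7) and 0.916 without 2 lines. The other 11 relations include Id1 and Id3 in MEF-2, where the sign was opposite. There r was -0.112 (exact permutation p = 0.857, adjusted p = 0.857, rho = -0.214, exact p = 0.662, n = 7), and -0.394 without 2 lines. Over these 11 relations, r ran from -0.112 to 0.577 (exact permutation p = 0.163 to 0.857, adjusted p = 0.418 to 0.857) and rho from -0.357 to 0.714 (exact p = 0.0881 to 0.662), with r of -0.446 to 0.90 without 2 lines.

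Each parental line has 1 library, so its place beside its clones is a description without a test. The MEF-1 parental line lay outside the range of its clones for 17 of 45 genes (37.8%, against 40.9% of all genes) and that of MEF-2 for 13 (28.9%, against 34.2%). For 5 genes (11.1%, against 11.6%) both parental lines lay outside on the same side. Eng, Grem1 and Nog were above all clones in both, and Gdf11 and Acvr1b were below. In MEF-2, Eng stood furthest apart of these 5, at 8.91 in the parental line against at most 7.40 in its clones, and in MEF-1 it was at 7.74 against at most 7.53, a smaller gap than that of Acvr1b or Gdf11. Of the 4 endothelial markers, Cdh5 (0.98) and Kdr (3.95) were above all clones in the MEF-2 parental line, while Pecam1 (2.01) and Tek (6.24) were within their range. The summed level of the 4 markers was 6.60 in that line and 5.05 to 6.83 in its clones (log2). Tek makes up most of this sum, in which Cdh5 and Kdr count little. The part of endothelial cells in the Eng value was not tested.

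**Figure D5:**
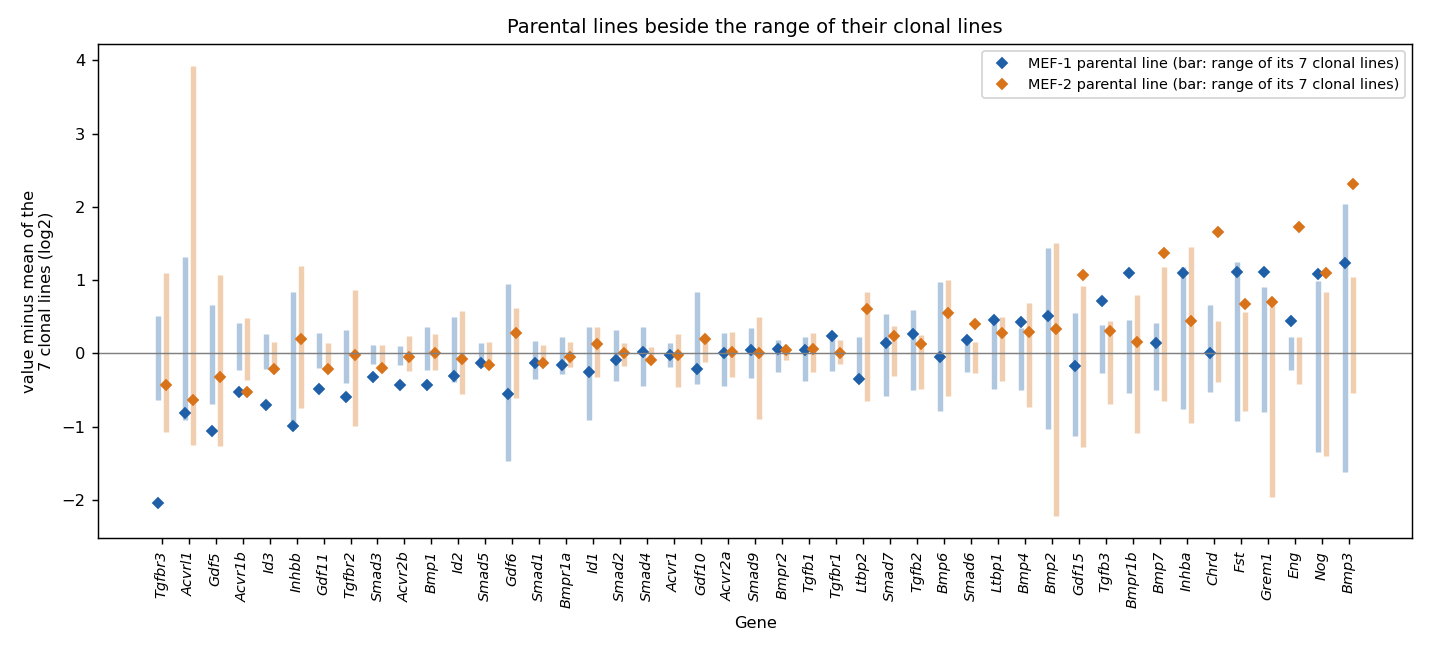
Value of each parental line minus the mean of its 7 clonal lines (diamonds, vertical axis, log2), with a bar for the range of the clones, for the 45 tested genes ordered by the sum of both values. Tgfbr3 lies furthest below its clones in MEF-1, at -2.04, and Eng (1.73), Chrd (1.66) and Bmp3 (2.31) lie above them in MEF-2.

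Another 56 genes of the pathway were listed beside these, and 46 were tested, of which 16 were higher in MEF-2, 12 were lower and 18 were not called. The 28 called are 60.9%, near the 56.1% of all genes tested. By class, the share called was 50% of 4 tested ligands, 71.4% of 14 secreted regulators and 66.7% of 6 receptors and co-receptors. It was 61.5% of 13 intracellular genes and 44.4% of 9 response genes. The 3 largest lower values were those of the BMP inhibitor Chrdl1 (-6.37, from a mean of 12.80 in MEF-1 to 6.43 in MEF-2), the matrix proteoglycan Dcn (-4.74, from 11.02 to 6.29) and the transcription factor gene Msx1 (-4.57, from 8.49 to 3.92). The SD among MEF-2 clones was only 0.05 for Chrdl1 and 0.07 for Msx1, against 0.47 for Dcn. The flat MEF-2 values of Chrdl1 and Msx1 may stand for no reads. The 3 largest higher values were those of the protease Tll1 (3.12, from 9.56 to 12.68), Nrros, which anchors latent TGF-beta (2.88, from 2.93 to 5.80), and Hey1 (1.63, from 5.66 to 7.29).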

How the data were processed

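Total RNA of 16 MEF lines was depleted of rRNA and sequenced as directional paired-end libraries. Per the submitters' processing notes and the methods of the study, the authors used Trim Galore 0.6.0, Salmon 1.5.2 (mm10, Ensembl release 102) and DESeq2 1.24.0, and deposited rlog values, which are log2 values per gene and line. How transcripts were joined into genes and whether rlog was blind to the groups is not given in the sources used here. The table holds no counts, so the depth is unknown and no counting interval is given. Genes were matched by identifier to GENCODE mouse release 21 (GRCm38), with 54200 of 54453 found.

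Groups came from the sample labels, with 0 lines unmatched. Differences (MEF-2 minus MEF-1 clonal lines, 7 against 7) were fitted with limma 3.58.1 in R 4.3.3 with a trended variance prior on protein-coding genes with an average above 0. The level per kilobase is the mean of 16 lines minus log2 of the length of all exons joined. For chromosome medians, each line's median over the tested genes of a chromosome, relative to the 14 clonal lines, was subtracted. The lowest, median and highest clonal values, with the parental values, are given for genes called with a difference of at least 1. The same is given for the Id genes and for the 4 widest ranges. The others are given by range or difference, and of other pathway genes the 3 largest called in each direction. The genes, their roles and all lists were chosen with earlier results of these data known. On simulated data with 200 of 15285 genes changed by 1 (log2), limma called 169 of these and 11 others. This does not measure how well smaller differences are called. Alternatives covered filters, scaling, variance priors, permutation, parental lines, chromosome medians, a replicate block and leaving out each line. Bisulfite data were not analysed here. The relations of 1 further gene pair were computed and are not reported here.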

Additional observations from a re-analysis of the deposited data

Results flagged for a closer look

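In each set of 7 clonal lines, a line was looked at again when its gap to the nearest other line took up more than 0.568 of the whole range (Dixon's 95% value). This was met in 3 of 90 sets, where chance alone gives about 1 in 20, or 4.5. Acvrl1 stood at 8.37 in MEF-2 clonal line 7, with the nearest line at 4.40. Smad4 stood at 13.48 in MEF-2 clonal line 3, with the nearest at 13.42, in a set that covered only 0.11. Id1 stood at 11.65 in MEF-1 clonal line 2, with the nearest at 12.40.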

How the results depend on the processing

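Of the 26 called genes, 25 were called under every alternative and 0 changed sign, and the number called ran from 25 to 30. Bmp2 lost its call under 16 alternatives, among them the exact permutation test (adjusted p = 0.0779) and leaving out MEF-2 clonal line 7 (difference 1.04, adjusted p = 0.101). Another 5 genes (Bmp4, Bmp6, Acvr1, Ltbp1 and Ltbp2) gained a call in the same direction under at least 1 alternative, Id2 gained one with a change of sign, and Bmp5, not tested otherwise, was called without the filter on the average (-0.13, adjusted p = 0.0263). Uncalled differences that changed sign were those of Bmp1 (0.0437 with parental lines added, 0.0299 with chromosome medians removed, and -0.0566 to 0.0485 on leaving out 1 line), Bmp7 (0.10 after quantile normalization), Acvrl1 (-0.0297 with lines centred, and -0.65 to 0.22 on leaving out 1 line), Eng (0.13 after quantile normalization, 0.0382 with parental lines added), and, with chromosome medians removed, Smad2 (-0.11), Smad7 (-0.11) and Id2 (-0.46, then called). The cause was not tested, beyond the removal of chromosome medians itself. The clone numbers do not pair the lines (same-number correlations of -0.13 to 0.20), and with a replicate block 26 genes were called, 13 in each direction. Since the depth is unknown, a low value may stand for no reads at all.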
